A study of Homo sapiens with 6 samples.

Results

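The genes described here are 76 protein-coding genes of the stretch from PLPP2 to ZBTB7A at the start of chromosome 19, most of which stood higher in NCCRP1-transfected clones of an oesophageal cancer line than in vector clones. They were taken in RefSeq gene order, among the 40448 gene IDs of the series, as the genes of that stretch that were above 0 in all 6 libraries with a mean log2 RPKM of 2 or more. GADD45B, CDC34 and RPS15 met these terms too and were set aside by name. RPKM counts reads per kilobase of transcript, scaled to the reads of the library, so levels on this scale are per length. Both ends of the stretch were picked for the difference between the groups, so the differences below are descriptions without a test.

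The samples were clones of KYSE150, a long-cultured squamous cancer line of the human oesophagus. The 3 NCCRP1 clones (1, 6 and 17) were stably transfected with a human NCCRP1 expression vector, and the 3 mock clones (1, 4 and 5) with the pIRES2-EGFP vector. Each library was total RNA of 1 clone, depleted of ribosomal RNA. The transfected gene itself, whose protein carries an F-box-associated domain, had log2 RPKM values of 6.19 (NCCRP1 clone 1), 8.07 (clone 6) and 6.71 (clone 17) and was listed at 0 in every mock clone.

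Libraries held 12477 to 12821 genes above 0, at an estimated 12290000 to 18070000 reads. The deposited names of NCCRP1 clone 1 and mock clones 1 and 4 carry the number 15. Those of NCCRP1 clones 6 and 17 and mock clone 5 carry 14. This number is called the run here, and the sample labels do not say what it stands for. The squamous marker genes KRT5, KRT6A, KRT17, TP63, SFN, DSG3, DSP and EGFR were at 3.52 or above in every library, while the leukocyte genes PTPRC, CD3E and LYZ were listed at 0 throughout. Of the fibroblast and endothelial markers, COL1A1 lay between 1.32 and 2.57, CDH5 was at 0.66 in NCCRP1 clone 6 alone, and COL1A2, COL3A1, DCN, LUM, PECAM1 and VWF were listed at 0. In RNA from whole cultures, a level shared by all cells and a level carried by some of them cannot be told apart.

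The short arm of chromosome 19 is known for its high density of genes and for its GC-rich sequence. Neighbours in such a region need not belong to 1 pathway, and the stretch from PLPP2 to ZBTB7A holds genes for transcription factors, splicing factors, mitochondrial enzymes, kinases, proteases and transporters. Genes that lie side by side share a chromosome, whereas the partners of their proteins are mostly encoded on other chromosomes.

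Of the 128 protein-coding genes of the stretch with an ID in the files, 35 were listed at 0 in every library and 5 in some. Another 9 were above 0 throughout with a mean under 2, and 79 passed both terms, which left 76 after the 3 named genes were set aside. Among the genes listed at 0 were ELANE, AZU1 and PRTN3, neutrophil granule genes, and KISS1R, a neuropeptide receptor gene. GNA11, which encodes a widely expressed G protein subunit, was listed at 0 as well. Some widely used genes are listed at 0 in these files, so nothing is read from such a 0.

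The median difference over the 76 genes was 0.53 on the log2 scale, NCCRP1 minus mock, which is 1.44-fold, with quartiles of 0.42 and 0.61. Over the 12737 genes tested the median was -0.02, with quartiles of -0.16 and 0.12. The mean of 74 of the 76 genes was higher in NCCRP1 clones, against 46.7% of all tested genes and 47.7% of the 8858 protein-coding genes at that level. In 56 of them every NCCRP1 clone was above every mock clone, against 5.71% of all tested genes and 6.21% of those at that level, and in none was every NCCRP1 clone below. By limma with Benjamini-Hochberg adjustment 0 of the 76 passed at 0.05, against 0.102% of all tested genes (0.0707% upward), and 55 had an unadjusted p under 0.05, against 7.33%. Since the stretch was chosen on this difference, these shares are given beside each other and nothing is read from them.

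**Figure D1:**
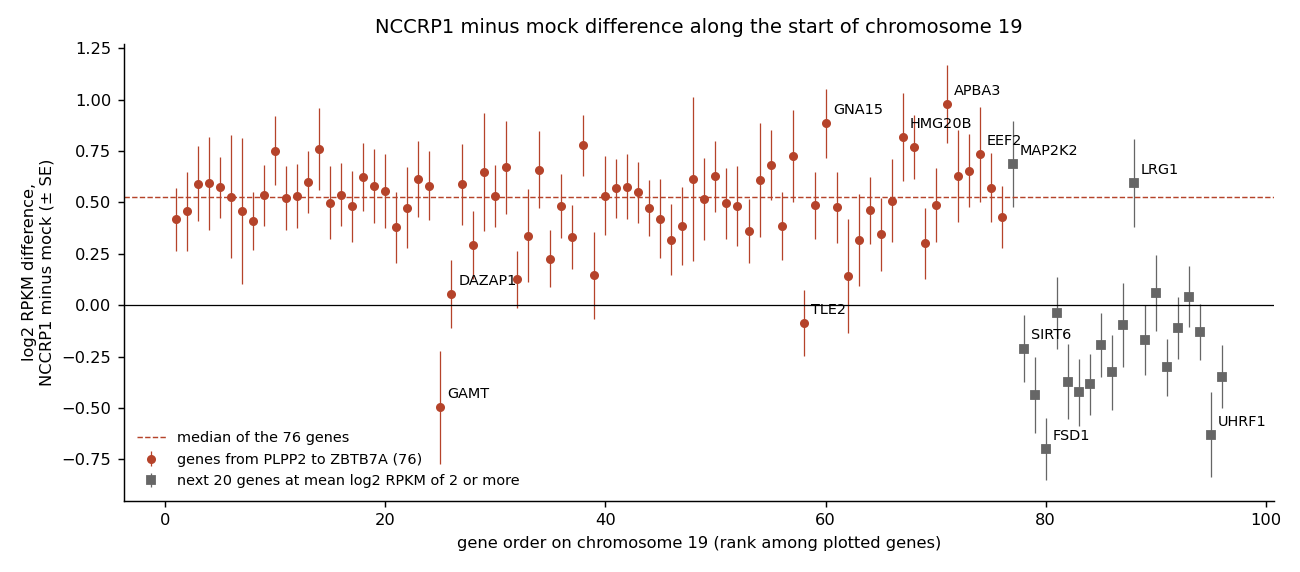
Points are log2 RPKM differences, NCCRP1 minus mock, with limma's standard error, in gene order along the start of chromosome 19. The 76 genes from PLPP2 to ZBTB7A lie around their median of 0.53, with GAMT at -0.50 and APBA3 at 0.98 as the extremes, and after MAP2K2 at 0.68 the values of the next genes are mostly below 0.

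The median shift differed little along the stretch, while its spread did not stay the same. Cut into 4 blocks of 19 genes, the blocks had median differences of 0.53 (PLPP2 to ATP5F1D), 0.48 (MIDN to ABHD17A), 0.52 (SCAMP4 to TLE6) and 0.49 (TLE2 to ZBTB7A). Their quartiles were 0.49 and 0.59 in the first block, 0.31 and 0.60 in the second, 0.40 and 0.59 in the third and 0.39 and 0.69 in the last. The number of genes with the groups apart was 17, 11, 13 and 15 of 19 in the same order, against 5.71% of all tested genes. The second block holds GAMT, DAZAP1, MEX3D and TCF3, which lay low. Across the 76 genes, the difference had a Spearman correlation of -0.04 with the mean level, 0.04 with transcript GC content, 0.03 with gene order and -0.22 with transcript length. Thus genes at the low end of the level range, such as APC2 at a mean log2 RPKM of 2.01, and the most abundant one, EEF2 at 10.07, both stood higher in NCCRP1 clones. Genes share their libraries, so these correlations are descriptions over genes.

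Measured by their spread, the differences were about as wide as elsewhere, around another centre. Their SD was 0.22 over the 76 genes and 0.24 over the 8779 protein-coding genes of the same level outside the stretch, and the distance between quartiles was 0.19 and 0.25. The median of limma's standard error was 0.17 in both sets. Of the 76 differences, 56 lay within 0.2 of their median, which is 73.7%, and 70.4% of the outside genes lay that near to theirs. In all, 62 of the 76 were between 0.25 and 0.75, a band that held 8.51% of the outside genes.

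**Figure D2:**
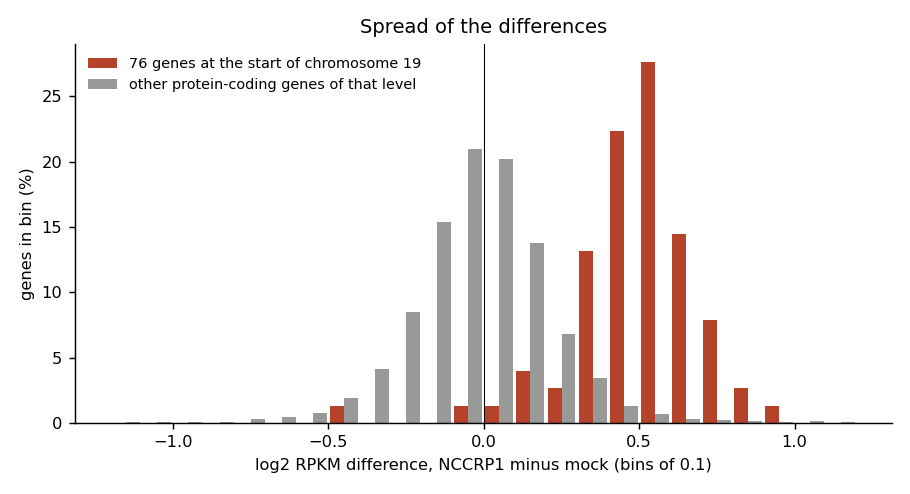
Bars give the percentage of genes per bin of 0.1 in the log2 difference, NCCRP1 minus mock, for the 76 genes and for 8779 other protein-coding genes at a mean log2 RPKM of 2 or more. The 76 genes centre on 0.53 and the others on -0.01, with 25 of the others beyond the axis.

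Clone by clone, the NCCRP1 clones were alike and 1 mock clone stood apart. Relative to each gene's mean over the 6 libraries, the 76 genes had medians of 0.28, 0.22 and 0.26 for NCCRP1 clones 1, 6 and 17, against -0.09, -0.14 and -0.55 for mock clones 1, 4 and 5. Mock clone 5 was the lowest library for 69 of the 76 genes. NCCRP1 clone 1 was the highest for 32, NCCRP1 clone 17 for 28 and NCCRP1 clone 6 for 14. For the outside genes of the same level the library medians lay between -0.02 and 0.03.

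Every pairing of an NCCRP1 clone with a mock clone gave the same direction. Against mock clone 1 the median differences were 0.38, 0.34 and 0.30 for NCCRP1 clones 1, 6 and 17, and against mock clone 4 they were 0.45, 0.39 and 0.41. Against mock clone 5 they were 0.85, 0.75 and 0.81. Of the 76 genes, 64 to 74 were higher in the NCCRP1 clone of a pair. Within the vector clones, mock clone 1 was above mock clone 5 by a median of 0.45 and mock clone 4 was above it by 0.36, while mock clones 1 and 4 differed by 0.07. Among the NCCRP1 clones no pair differed by more than 0.06 in the median.

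Mock clone 5 was the single vector library of run 14. The NCCRP1 clones lay in both runs, and over the 76 genes clone 1 of run 15 was above clones 6 and 17 of run 14 by medians of 0.06 and 0.03. With the run as a second term the median difference was 0.59. Run 14 alone gave a median of 0.77 over the 76 genes, with 74 positive, and run 15 alone gave 0.40, with 70 positive. Without mock clone 5 the median over the 76 genes was 0.40, with 73 genes higher in NCCRP1 clones. The groups were then apart upward in 56 of the 76 and in 15.7% of all tested genes, against 5.71% with all 6 clones. Leaving out any other clone, which also leaves fewer clones to part, gave 8.18% to 11.8% of all tested genes. The cause of the larger share without mock clone 5 was not tested.

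**Figure D3:**
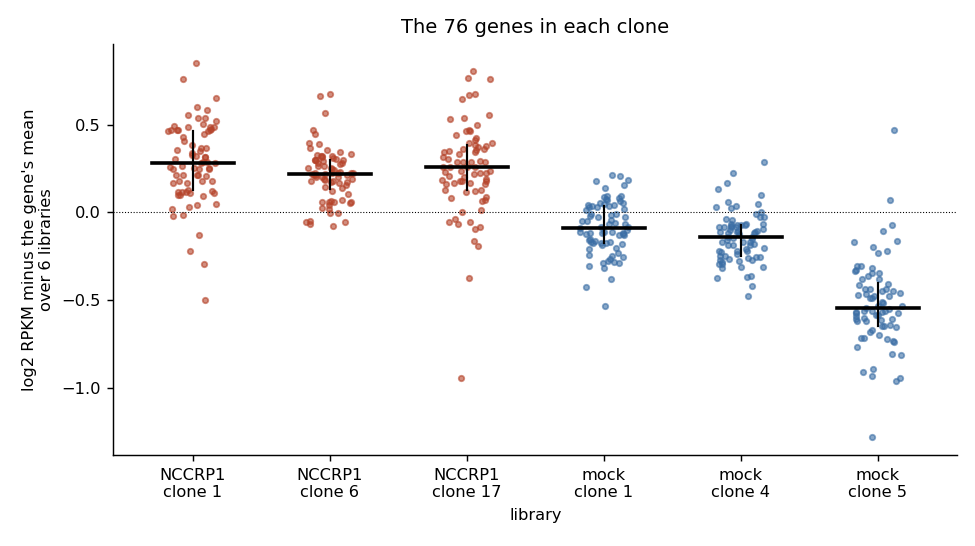
Each point is 1 of the 76 genes, plotted as its log2 RPKM in a library minus its mean over the 6 libraries, with the median as a thick line and the quartiles as a thin one. Medians are 0.22 to 0.28 in the NCCRP1 clones and -0.55 to -0.09 in the mock clones, with mock clone 5 the lowest.

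The far end of the stretch was picked on these same differences, so the values around it are descriptions. ZBTB7A, a zinc-finger transcription repressor gene and the last of the 76, was at 4.58, 4.80 and 4.67 in NCCRP1 clones 1, 6 and 17 and at 4.38, 4.36 and 4.02 in mock clones 1, 4 and 5. MAP2K2, the gene for the MAP kinase kinase MEK2 and the next expressed neighbour, lies outside the picked ends but was also higher, at 6.12, 6.12 and 5.95 in NCCRP1 clones and 5.67, 5.62 and 4.84 in mock clones. SIRT6, which encodes a chromatin-bound deacylase and follows MAP2K2, was at 5.41, 5.04 and 4.88 in NCCRP1 clones and 5.45, 5.20 and 5.31 in mock clones. The difference was 0.68 for MAP2K2 and -0.21 for SIRT6. Of the 19 expressed genes from SIRT6 to KDM4B, 16 were lower in NCCRP1 clones, where 46.7% of all tested genes were higher. Their median was -0.21, and in 9 every NCCRP1 clone was below every mock clone, against 7.05% of all tested genes. LRG1, a secreted leucine-rich glycoprotein gene, was the clearest exception there at 0.59, and FSD1 was the lowest at -0.70. The 566 expressed genes from SIRT6 to the end of the chromosome had a median of -0.08.

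At the other end, the first of the 76 is PLPP2. It encodes a lipid phosphate phosphatase and was at 4.45, 4.83 and 4.64 in NCCRP1 clones 1, 6 and 17 and at 4.35, 4.06 and 4.27 in mock clones 1, 4 and 5. Before it lie WASH5P, a transcribed pseudogene with near-identical copies elsewhere and therefore uncertain, at a difference of 0.12, and the long noncoding RNA LINC01002 at -0.37. By level, APC2 at a mean of 2.01 and AMH at 2.03 were the lowest of the 76, and ZNF57 at 1.72 and TPGS1 at 1.71 were the highest below the floor.

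Promoter sequences are shown for 4 of the 76 genes, EEF2 as the most abundant, APBA3 as the one with the highest difference, and DAZAP1 and TLE2 as 2 that did not share the shift. Each is the 250 bases before the RefSeq start on GRCh38.p14, on the gene's strand, at chr19:3985464-3985713 (minus) for EEF2, chr19:3761693-3761942 (minus) for APBA3, chr19:1407336-1407585 (plus) for DAZAP1 and chr19:3047636-3047885 (minus) for TLE2. Capitals mark matches, on either strand, to the GC box GGGCGG, the CCAAT box CCAAT, the TATA box TATAAA, the ETS motif CCGGAAG, the E-box CACGTG and the cyclic AMP response element TGACGTCA, and none of the 6 contains another.
EEF2: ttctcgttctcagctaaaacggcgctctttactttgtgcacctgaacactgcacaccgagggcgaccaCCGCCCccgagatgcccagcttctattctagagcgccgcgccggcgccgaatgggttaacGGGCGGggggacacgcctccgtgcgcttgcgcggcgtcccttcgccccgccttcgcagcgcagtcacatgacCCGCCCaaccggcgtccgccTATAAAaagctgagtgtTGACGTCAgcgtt
APBA3: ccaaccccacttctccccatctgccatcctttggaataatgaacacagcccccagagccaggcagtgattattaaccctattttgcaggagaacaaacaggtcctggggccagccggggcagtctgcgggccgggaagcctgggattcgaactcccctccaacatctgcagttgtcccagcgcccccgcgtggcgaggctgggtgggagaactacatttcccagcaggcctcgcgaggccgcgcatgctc
DAZAP1: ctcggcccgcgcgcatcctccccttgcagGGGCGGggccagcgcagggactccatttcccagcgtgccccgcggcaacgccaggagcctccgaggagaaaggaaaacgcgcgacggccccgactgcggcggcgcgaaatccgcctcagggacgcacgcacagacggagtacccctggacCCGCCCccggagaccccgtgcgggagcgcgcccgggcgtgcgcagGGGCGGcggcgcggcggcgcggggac
TLE2: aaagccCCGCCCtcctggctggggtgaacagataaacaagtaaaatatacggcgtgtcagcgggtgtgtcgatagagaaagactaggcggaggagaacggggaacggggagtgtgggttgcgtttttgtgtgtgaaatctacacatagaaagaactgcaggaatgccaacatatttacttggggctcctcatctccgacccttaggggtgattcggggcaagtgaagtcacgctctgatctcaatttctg
The EEF2 window holds 3 GC boxes, a TATA box and a cyclic AMP response element, the DAZAP1 window 3 GC boxes, the TLE2 window 1 GC box, and the APBA3 window none of the 6 motifs.

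RefSeq promoters were matched for 68 of the 76 genes. Their windows were GC-rich, with a median GC content of 71.0% against 65.6% for 7309 outside genes of the same level and 62.4% for 15284 protein-coding genes, and held a median of 29 CpG against 22 and 18. A GC box stood in 83.8% of the 68 windows, against 70.2% of the outside genes' windows and 56.8% of all protein-coding ones. The CCAAT box was in 38.2%, 35.7% and 34.7% of the 3 sets, the ETS motif in 20.6%, 18.1% and 12.01%, the E-box in 11.8%, 9.29% and 7.84%, and the TATA box in 7.35%, 5.05% and 9.18%. The cyclic AMP response element was in 1 of the 68 windows, or 1.47%, against 3.35% of the outside genes' windows and 2.37% of all protein-coding ones. The transcripts themselves had a median GC content of 62.8%, against 50.2% for the outside genes, so the 76 genes differ from others in base composition. With each library's trend over GC content removed, the median difference of the 76 genes was 0.58.

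Genes of transcription and chromatin made up 16 of the 76, with a median difference of 0.47, and 15 of them were positive. HMG20B, a high-mobility-group subunit of the LSD1 and CoREST corepressor, had the largest at 0.82 (SE 0.21). It was at 7.29, 7.14 and 7.26 in NCCRP1 clones 1, 6 and 17 and at 6.64, 6.72 and 5.88 in mock clones 1, 4 and 5, so the groups did not overlap and mock clone 5 was far below the other vector clones. TLE5, a short Groucho-family protein that dampens the longer corepressors, was the most abundant of this group, at 7.88, 8.02 and 7.83 in NCCRP1 clones and 7.57, 7.45 and 7.26 in mock clones. The basal machinery was present with POLR2E, a subunit shared by the nuclear RNA polymerases, at a difference of 0.50, and the Mediator subunit gene MED16 at 0.53. PWWP3A, a chromatin reader gene, stood at 0.61, the SUMO ligase gene PIAS4 at 0.57, and SBNO2, a coregulator gene of the cytokine response, at 0.48. The corepressor gene MIER2 was at 0.46, ZBTB7A at 0.43 and DOT1L, the histone H3 lysine methyltransferase gene, at 0.42. MBD3, of the NuRD remodelling complex, was at 0.34, the zinc-finger gene KLF16 at 0.33 and TCF3, which encodes the E proteins E12 and E47, at 0.23.

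The Groucho family shows how neighbours can part. TLE6, TLE2 and TLE5 follow each other in the stretch, and their differences were 0.73, -0.09 and 0.48. TLE2, a Groucho corepressor gene, was at 3.13, 2.93 and 2.81 in NCCRP1 clones 1, 6 and 17 and at 3.08, 2.97 and 3.07 in mock clones 1, 4 and 5, so its groups overlapped between genes that did not. Mock clone 5, low for most of the stretch, was not low for TLE2. NFIC, a transcription factor gene, was at 2.18, 2.63 and 3.44 in NCCRP1 clones and 2.73, 2.61 and 2.49 in mock clones, a difference of 0.14 (SE 0.28). Its highest value was in NCCRP1 clone 17 and its lowest in NCCRP1 clone 1, and without clone 17 its difference was -0.20.

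Genes of RNA processing and translation numbered 11, with a median difference of 0.41, and all 11 were positive. EEF2, the elongation factor that moves the ribosome along the message, was at 10.65, 10.28 and 10.39 in NCCRP1 clones 1, 6 and 17 and at 9.90, 9.75 and 9.46 in mock clones 1, 4 and 5. The groups did not overlap, and the difference was 0.73 (SE 0.23). DOHH, which completes the hypusine modification of the factor eIF5A, stood at 0.32. CACTIN, a splicing factor gene, was at 4.26, 4.24 and 4.03 in NCCRP1 clones and 3.47, 3.54 and 3.20 in mock clones, a difference of 0.77 (SE 0.16). LSM7, a subunit of the ring that binds U6 RNA and decaying messages, was at 0.63, WDR18, of a ribosome maturation complex, at 0.52 and the exonuclease gene REXO1 at 0.48. PTBP1, the polypyrimidine tract binding repressor of exons, stood at 7.01, 7.01 and 6.98 in NCCRP1 clones and 6.53, 6.52 and 6.72 in mock clones, a difference of 0.41, with mock clone 5 the highest vector clone here. SF3A2, of the U2 particle, was at 0.39 and the cold-inducible RNA-binding protein gene CIRBP at 0.38.

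Both of the remaining RNA-binding genes stayed near 0. DAZAP1, a splicing and translation regulator gene, was at 6.66, 6.74 and 6.53 in NCCRP1 clones 1, 6 and 17 and at 6.80, 6.66 and 6.31 in mock clones 1, 4 and 5, a difference of 0.05 (SE 0.16). MEX3D, an RNA-binding ubiquitin ligase gene, was at 4.70, 4.86 and 4.79 in NCCRP1 clones and 4.82, 4.60 and 4.56 in mock clones, a difference of 0.13 (SE 0.14). In both the groups overlapped and mock clone 1 was above at least 1 NCCRP1 clone. Without mock clone 5 the difference of DAZAP1 was -0.09.

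The 6 mitochondrial genes lay close together, with differences from 0.48 to 0.66 and a median of 0.59. They cover mitochondrial transcription through POLRMT at 0.59, translation through the ribosomal protein gene MRPL54 at 0.63 and protein import through TIMM13 at 0.48. Respiratory chain genes were NDUFS7 of complex I at 0.58 and UQCR11 of complex III at 0.66. ATP5F1D, the delta subunit of ATP synthase, was at 5.99, 5.69 and 5.65 in NCCRP1 clones 1, 6 and 17 and at 5.45, 5.30 and 4.85 in mock clones 1, 4 and 5, a difference of 0.58. Its groups did not overlap, and those of 4 of the 6 genes did not, against 56 of the 76 genes and 5.71% of all tested genes.

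Ubiquitin, folding and proteolysis genes numbered 10, with a median of 0.54 and a range of 0.38 to 0.68. SGTA, at 0.68, and RNF126, at 0.57, encode a chaperone and a ubiquitin ligase that act in turn on stray membrane proteins. TMEM259, or membralin, a part of ER-associated degradation, was the most abundant of the group, at 6.58, 6.57 and 6.61 in NCCRP1 clones 1, 6 and 17 and at 6.15, 6.23 and 5.79 in mock clones 1, 4 and 5, a difference of 0.53. MIDN, which brings proteins to the proteasome, was at 0.56, the BTB-domain gene BTBD2 at 0.57, and FZR1, an activator of the anaphase-promoting complex, at 0.46. NCLN, of the translocon, was at 0.48. The protease genes PCSK4, SPPL2B and THOP1 were at 0.65, 0.49 and 0.38.

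Signalling genes were 13, with a median of 0.59, and all 13 were positive. APBA3, an adaptor that also binds an inhibitor of HIF1, had the largest difference of the 76 at 0.98 (SE 0.19), a 1.97-fold ratio. It was at 4.73, 4.66 and 4.65 in NCCRP1 clones 1, 6 and 17 and at 3.81, 4.04 and 3.26 in mock clones 1, 4 and 5. The groups were apart by more than the whole range of the NCCRP1 clones. GNA15, the alpha subunit of a Gq-class G protein found mainly in blood and epithelial cells, followed at 0.89 (SE 0.17), with 5.63, 5.73 and 5.44 in NCCRP1 clones and 4.62, 5.03 and 4.49 in mock clones. ABHD17A, which removes palmitate from membrane proteins, was at 4.75, 4.41 and 4.64 in NCCRP1 clones and 3.92, 3.85 and 3.70 in mock clones, a difference of 0.78 (SE 0.15). Here mock clone 5 was near the other vector clones.

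Of the 5 kinase genes, 4 lay within 0.2 of the median of the stretch, and PIP5K1C lay below. STK11, or LKB1, the tumour suppressor kinase that activates AMPK, was at 4.98, 4.86 and 4.99 in NCCRP1 clones 1, 6 and 17 and at 4.45, 4.53 and 3.98 in mock clones 1, 4 and 5, a difference of 0.62 (SE 0.17). MKNK2, which phosphorylates the cap-binding protein eIF4E, was at 6.68, 6.62 and 6.75 in NCCRP1 clones and 6.28, 6.21 and 5.83 in mock clones, a difference of 0.58. The death-associated kinase gene DAPK3 stood at 0.65, the casein kinase gene CSNK1G2 at 0.53 and PIP5K1C, a phosphoinositide kinase gene, at 0.30. MOB3A, a kinase adaptor gene, was at 0.55, APC2, a relative of the Wnt regulator APC, at 0.59 and PLPP2 at 0.42. FSTL3, a secreted inhibitor of activins, was at 4.94, 5.82 and 5.51 in NCCRP1 clones and 5.24, 5.19 and 4.25 in mock clones. Its difference of 0.53 (SE 0.30) was -0.28 within run 15 and 1.41 within run 14. AMH, the anti-Müllerian hormone gene, had the largest standard error of the 76, at 0.61 (SE 0.40), with mock clone 5 at 0.76 and the other libraries between 1.98 and 2.84.

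Membrane and transport genes were 9, all positive, with a median of 0.47. BSG, or basigin, the chaperone of lactate transporters, was at 8.78, 8.61 and 8.43 in NCCRP1 clones 1, 6 and 17 and at 8.14, 8.06 and 7.85 in mock clones 1, 4 and 5, a difference of 0.59 (SE 0.18). ABCA7, a lipid transporter gene, was at 4.77, 4.81 and 5.22 in NCCRP1 clones and 4.25, 4.49 and 3.78 in mock clones, a difference of 0.76 (SE 0.20). In both genes the groups did not overlap. The zinc importer gene SLC39A3 was at 0.61, the ER-shaping REEP6 at 0.53, FAM174C at 0.47 and AP3D1, the delta subunit of the AP-3 adaptor, also at 0.47. The lysosomal cysteine transporter gene MFSD12 was at 0.34 and PLEKHJ1 at 0.32. SCAMP4, a secretory carrier protein gene, stayed low at 0.15 (SE 0.21), with 2.42, 2.75 and 3.17 in NCCRP1 clones and 2.77, 2.64 and 2.49 in mock clones. Its NCCRP1 clone 1 was the lowest of all 6 libraries.

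The 5 cytoskeleton, lamina and junction genes ran from 0.36 to 0.60. CNN2, an actin-binding calponin, was at 0.60, TEKTIP1 at 0.51, the tight junction scaffold gene TJP3 at 0.49 and the spindle-positioning gene MISP at 0.46. LMNB2, a nuclear lamin gene, was at 7.21, 7.40 and 7.28 in NCCRP1 clones 1, 6 and 17 and at 7.03, 7.05 and 6.74 in mock clones 1, 4 and 5, a difference of 0.36. Of the 5, MISP alone had overlapping groups, and 4 had the groups apart, against 56 of the 76 genes and 5.71% of all tested genes.

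Redox and small-molecule metabolism held 3 genes, and 1 of them went the other way. GPX4, the peroxidase that protects membrane lipids, was at 7.54, 7.55 and 7.49 in NCCRP1 clones 1, 6 and 17 and at 6.98, 6.84 and 7.15 in mock clones 1, 4 and 5, a difference of 0.54 (SE 0.15). OAZ1, the antizyme that limits polyamine synthesis, was at 8.62, 8.29 and 8.26 in NCCRP1 clones and 8.16, 7.85 and 7.60 in mock clones, a difference of 0.52. GAMT, the last enzyme of creatine synthesis, was at 2.73, 2.57 and 1.60 in NCCRP1 clones and 2.69, 2.69 and 3.02 in mock clones, a difference of -0.50 (SE 0.27). NCCRP1 clone 17 was far below the others, and mock clone 5, the lowest library for most genes of the stretch, was the highest for GAMT. Within run 15 its difference was 0.04. Of the 3 genes without a group, R3HDM4 was at 0.75, with 6.52, 6.38 and 6.32 in NCCRP1 clones and 5.91, 5.72 and 5.33 in mock clones, ADAMTSL5 at 0.67 and C19orf25 at 0.29.

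Distance from the common shift was within the standard error for most genes. For 56 of the 76 the difference lay within its own standard error of 0.53, and for 7 it lay more than 2 standard errors away. The same counts were not taken for other genes, so nothing is read from their size. Above were APBA3 and GNA15, and below were GAMT, TLE2, DAZAP1, MEX3D and TCF3. GAMT and its neighbour DAZAP1 follow each other in the stretch, but NDUFS7, on the other side of GAMT, was at 0.58, so the low values did not run on to that neighbour.

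**Figure D4:**
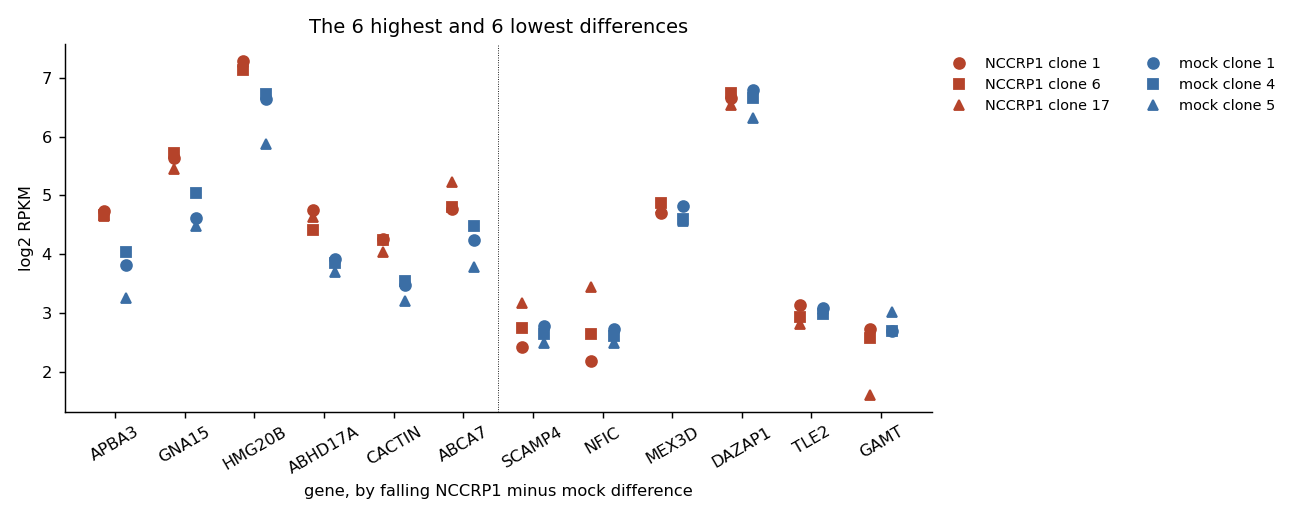
Points are log2 RPKM in each NCCRP1 and mock clone for the 6 genes with the highest and the 6 with the lowest NCCRP1 minus mock difference, with the dotted line between them. In the 6 genes at the left, from APBA3 to ABCA7, no mock clone reaches an NCCRP1 clone, and in the 6 at the right, from SCAMP4 to GAMT, the groups overlap. The genes were picked by this difference, so nothing is read from that. Every NCCRP1 clone was above every mock clone in 56 of the 76 genes and in 5.71% of all tested genes.

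Genes of the stretch that did not qualify showed the same direction in most cases, where 46.7% of all tested genes were higher in NCCRP1 clones. They lie inside the picked stretch, so nothing is read from this. The 3 genes set aside by name, GADD45B, CDC34 and RPS15, had differences of 1.59, 0.49 and 0.78. Each had every NCCRP1 clone above every mock clone, as had 5.71% of all tested genes. Of 14 protein-coding genes above 0 in some library but below the level floor, ZNF57 averaged 2.21 ± 0.11 in NCCRP1 clones and 1.23 ± 0.16 in mock clones (SD, n = 3 each), a difference of 0.98, and its zinc-finger neighbours ZNF77 and ZNF554 were at 0.70 and 0.61. ARID3A, a DNA-binding factor gene, was at 0.79. TMPRSS9 at -0.06 and C2CD4C at -0.15 were the only ones of the 14 below 0. The microRNA genes MIR637, MIR4745, MIR1227 and MIR4321 were at 0.83, 0.01, -0.17 and -0.44. SNORD37, a small nucleolar RNA inside EEF2, was at 10.88, 11.14 and 11.11 in NCCRP1 clones and 9.31, 9.92 and 10.81 in mock clones, so its mock clone 5 was the highest vector clone while that of EEF2 was the lowest. The antisense RNA CACTIN-AS1 had a difference of -0.41 beside 0.77 for CACTIN, and CIRBP-AS1 had 0.45 beside 0.38 for CIRBP. No source used here states that strand was used in counting, so reads of overlapping genes cannot be told apart. In RefSeq 33 of the 76 genes overlap another gene and 10 overlap another of the 76, among them TJP3 with APBA3 and MFSD12 with TEKTIP1, and their values are uncertain for that reason.

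Many of these proteins work in complexes whose other subunits are encoded elsewhere, and those genes were not used to pick the stretch. In 23 complexes or pathways, 220 partner genes were tested in the same limma fit. Their median difference was -0.01 (quartiles -0.13 and 0.12), and 103 of the 220 were higher in NCCRP1 clones. The median of the 76 genes was 0.53. Their stretch was picked for this difference, so the gap to the partner genes is not read as a result. By limma with Benjamini-Hochberg adjustment over all genes, 0 of 220 passed, and 6 had an unadjusted p under 0.05, or 2.73%, against 7.33%. In 6 every NCCRP1 clone was above every mock clone, or 2.73%, against 5.71%, and in 12 every NCCRP1 clone was below, or 5.45%, against 7.05%. A miss of the threshold does not show that a partner gene stayed the same.

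Respiratory complex I had 35 tested partners of NDUFS7, with a median of -0.04 and a range of -0.50 to 0.36. NDUFS7 itself was at 0.58. Genes of the stretch were picked for being high, so their standing above partners is not read as a result. For ATP5F1D the 14 other ATP synthase genes had a median of 0.09 and a highest value of 0.41, and for UQCR11 the 8 other complex III genes had a median of 0.09. The 26 Mediator genes beside MED16 had a median of -0.05 and a highest value of 0.17, and the 11 RNA polymerase II genes beside POLR2E a median of -0.01. Partners of STK11, from its kinase complex, AMPK and the SIK and MARK kinases, had a median of -0.07 over 13 genes. The 10 tested partners of GNA15 were GNAQ, G protein beta and gamma genes, phospholipase C genes and RIC8A. Their median was -0.03, beside 0.89 for GNA15. For LSM7, SF3A2 and EEF2 the partners' medians were -0.13, 0.04 and -0.06.

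The partner genes with the lowest p in each direction are given with their values, and none of them passed the test. On the higher side, SAT1, which breaks down polyamines and partners OAZ1 in that pathway, averaged 8.81 ± 0.08 in NCCRP1 and 7.86 ± 0.29 in mock clones (SD, n = 3 each; limma adjusted p = 0.132). UQCRC2 of complex III averaged 5.85 ± 0.01 in NCCRP1 and 5.50 ± 0.10 in mock clones (SD, n = 3 each; limma adjusted p = 0.559). ANAPC13, of the anaphase-promoting complex, had a difference of 0.36 (limma adjusted p = 0.565). On the lower side, MLLT1, a DOT1L partner also encoded on chromosome 19, averaged 5.35 ± 0.07 in NCCRP1 and 5.78 ± 0.04 in mock clones (SD, n = 3 each; limma adjusted p = 0.381). CDC16 of the anaphase-promoting complex and GCLC, of glutathione synthesis, had differences of -0.46 and -0.39 (limma adjusted p of 0.592 and 0.595). SAT1 was the sole partner gene above the median of the 76 genes.

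**Figure D5:**
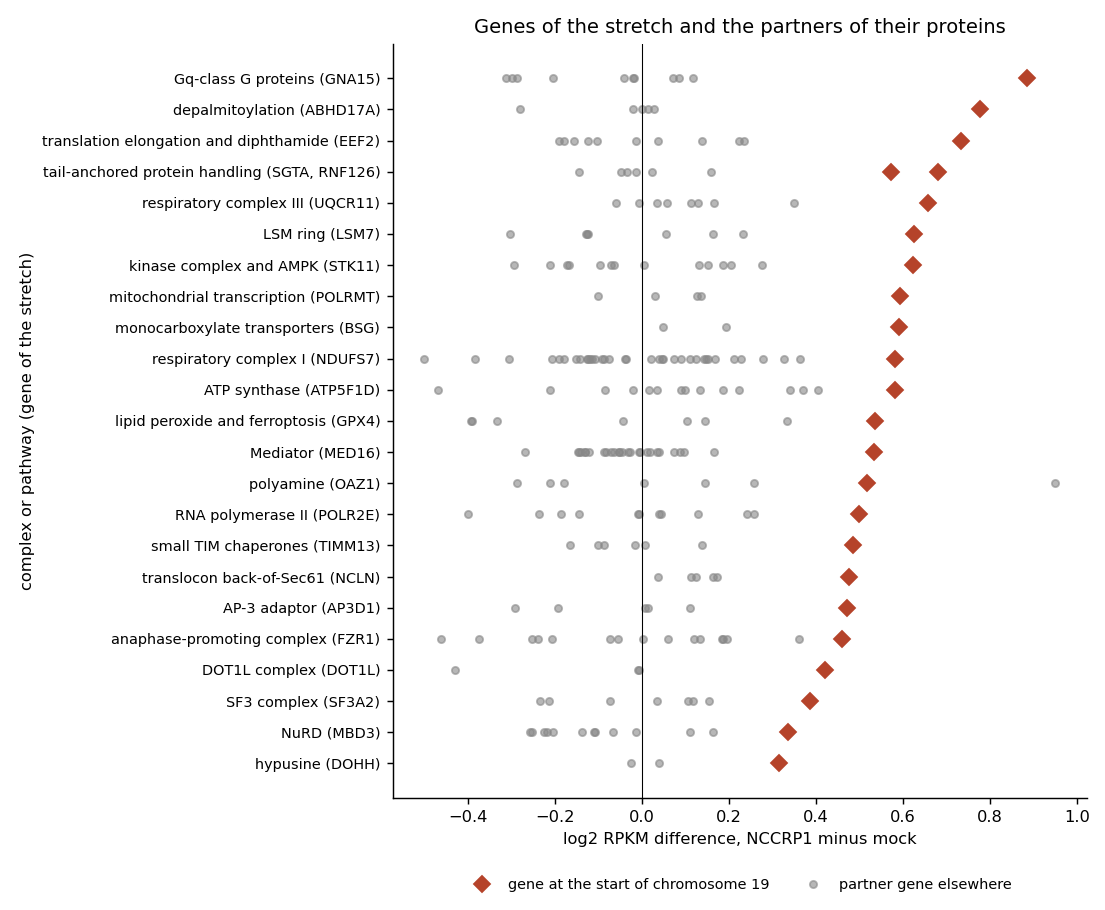
Each row is a complex or pathway, with the log2 difference, NCCRP1 minus mock, of the gene or genes from the start of chromosome 19 as diamonds and of partner genes encoded outside the stretch as grey points. The diamonds were chosen for being high; the 220 partner genes centre on -0.01.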

How the data were processed

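RNA was measured in 3 NCCRP1 and 3 mock clones of KYSE150, 1 library each. The authors deposited a value for each of 40448 Entrez gene IDs under the name RPKM, per the file headers, but the values are log2 RPKM: their highest value is 16.6, and 2 to the power of the value times transcript length in kilobases sums to between 1132550 and 1149540 in each library. No deposited value is below 0. The submitters' processing notes name hg19 and bedtools 2.25.0 without a role; the aligner is not given in the sources used here.

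The files hold no counts. Depth was taken from microRNA genes, over steps searched from 8000000 to 24000000 reads. The step kept puts the largest share of values under 8 reads within 0.005 of a whole read. This share was 23.4% to 33.1% per library, against 1% by chance at a fixed step. The best step of the search was kept, so 1% is not the chance share for it. The share was too low to recover counts.

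Deposited log2 values were compared with limma 3.58.1 in R 4.3.3 (trended, robust, group as the sole term, two-sided) for 12737 genes above 0 in at least 3 libraries, with Benjamini-Hochberg adjustment over all of them, and the code was tested on simulated data. No pseudocount was added. Symbols of 37997 IDs, gene order and promoters came from RefSeq on GRCh38.p14, and GC content from the longest GENCODE v29 transcript. The members, gene groups, partner lists and naming rule (the 6 highest and 6 lowest members, the most abundant of each group, both ends, and the 3 partners with the lowest p a direction, with further members given after their values were seen) were chosen with earlier results of these data known. Alternatives were other pseudocounts, scaling, GC trend, run, level floors and leaving out each clone. Clones are separately labelled, but p-values measure the spread between these 6 libraries alone.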

Additional observations from a re-analysis of the deposited data

How the results depend on the processing

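Over the 76 genes the median difference stayed between 0.50 and 0.58 with log2(RPKM + 1), log2(RPKM + 0.1), library medians subtracted or the GC trend removed, was 0.59 with the run as a second term, and 0.53 and 0.52 with level floors of 1 and 4 (82 and 55 genes). It was 0.77 within run 14, where mock clone 5 is the only mock clone. Leaving out 1 clone gave 0.40 to 0.60, with 72 to 74 genes higher in NCCRP1 clones, 56 to 65 with the groups apart (8.18% to 15.7% of all tested genes) and an SD over genes of 0.20 to 0.25. The SD over genes was 0.29 within run 15 and 0.35 within run 14, where fewer clones enter each difference. Of 912 values of single genes under the alternatives, 843 stayed within 1 SD of the clones, and 11 changed sign, in 8 genes (SCAMP4, NFIC, DAZAP1, FSTL3, GAMT, MEX3D, AMH and TLE2), mostly within run 15.

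Of all tested genes 13 passed limma's threshold; 3 did with no filter on low values, 4 with log2(RPKM + 1), 1 with log2(RPKM + 0.1), 4 with the GC trend removed, 2 with the run as a term and 5 with robust=FALSE, and 0 to 29 with 1 clone left out (0 without mock clone 5, with 1363 at an unadjusted p under 0.05). The cause was not tested. None of the 76 genes and none of the partner genes passed in any of these. By limma, 41 to 66 of the 76 and 3 to 18 partners had an unadjusted p under 0.05. Over the 12737 tested genes this count ran from 680 without mock clone 1 to 1363 without mock clone 5. The 18 partners were also found without mock clone 5. The 76 genes were picked for this difference, so nothing is read from their count. No paired analysis was possible because the groups share 1 clone number, which names a clone and pairs nothing. Values under 1 RPKM are listed at 0, which limits the lowest genes.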
